A study of Mus musculus with 4 samples.

Results

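The genes that load and present peptides on major histocompatibility complex (MHC) class II were examined in blood progenitors of the mouse foetal liver. They were the 6 genes Cd74, H2-Aa, H2-Ab1, H2-Eb1, H2-DMa and Ciita, taken as every probe set annotated to exactly one of them. This gave 14 probe sets of the 45037 measured, and 6 of the 18193 genes with a probe set of their own. The RNA came from lineage-negative, cKit-positive, Sca1-positive (LSK) cells, the fraction that holds stem cells and multipotent progenitors, sorted at E13.5. The embryos, labelled female, carried 1 allele of Hes1 with a GFP reporter (genotype Hes1 GFP/WT) in both groups, and Hes1 is a repressor that Notch signalling switches on. There was 1 array labelled HES1-GFP positive and 3 labelled HES1-GFP negative, and the comparison asks how LSK cells with and without reporter signal differ. The labels do not say whether embryos were pooled or whether the negative samples came from separate sorts, so p-values measure only the spread between these samples, which may be technical.

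MHC class II molecules are pairs of an alpha and a beta chain that show peptides from the endosome to helper T cells. The invariant chain, encoded by Cd74, blocks the groove and guides the pair to the endosome, where its last fragment is exchanged for a peptide with the help of H2-DM. The genes are known for their expression in dendritic cells, B cells and macrophages, and in human blood progenitors the class II molecule HLA-DR is a familiar surface marker. Their promoters share an X box, bound by RFX factors, and a Y box, bound by NF-Y. Ciita, a coactivator that does not bind DNA itself, docks onto these factors and sets the level of transcription.

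That shared promoter layout could be read for H2-Aa and H2-Eb1, 2 chain genes that have the order of arrays described below, and their sequences are shown. Each sequence (RefSeq, GRCm38.p6) is the 250 bases before the annotated start, written 5′ to 3′ on the gene's strand. Capitals mark GCAAC, letters from within the X box region, and ATTGG, the core of the Y box. The H2-Aa promoter lies at chr17:34287824-34288073 on the minus strand and the H2-Eb1 promoter at chr17:34305617-34305866 on the plus strand.
H2-Aa: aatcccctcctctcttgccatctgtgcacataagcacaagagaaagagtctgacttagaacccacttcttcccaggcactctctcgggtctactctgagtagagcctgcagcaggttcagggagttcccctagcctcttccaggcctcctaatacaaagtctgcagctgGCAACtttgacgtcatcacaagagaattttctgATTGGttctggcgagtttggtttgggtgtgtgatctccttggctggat
H2-Eb1: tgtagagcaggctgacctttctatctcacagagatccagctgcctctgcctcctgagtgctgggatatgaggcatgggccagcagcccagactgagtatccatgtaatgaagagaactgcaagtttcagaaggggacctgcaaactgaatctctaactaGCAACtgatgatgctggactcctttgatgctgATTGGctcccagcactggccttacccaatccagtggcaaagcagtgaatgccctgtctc

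In H2-Aa, GCAAC began 81 bases before the start and ATTGG 48 bases before it, with 28 bases between them. In H2-Eb1, they began 91 and 59 bases before the start, with 27 bases between. A promoter was at hand for 8 class II genes, H2-DMa with a second start, and 5 of these 8 held GCAAC followed by ATTGG with 20 to 30 bases between them. The stretch from one motif to the other is set out below for the other 3, the chain genes H2-Oa, H2-Ob and H2-Eb2, to show how alike the spacing is.
H2-Oa: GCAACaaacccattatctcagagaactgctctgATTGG
H2-Ob: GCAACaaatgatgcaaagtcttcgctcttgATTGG
H2-Eb2: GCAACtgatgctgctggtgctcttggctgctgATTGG

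These 3 had 28, 25 and 27 bases between the motifs. Searched on both strands in all 32851 promoters of 250 bases, GCAAC was found in 29.9%, ATTGG (or CCAAT on the other strand) in 33.8%, and the spaced pair in 0.49%. The motifs and the spacing were chosen after these promoters had been read, and the share of the 5 class II genes is therefore a description. Neither start of H2-DMa held the pair in this window, nor did H2-DMb1 or H2-DMb2. The search took these exact letters only, so an X box with other letters was not counted, and H2-DMb1 and H2-DMb2 did hold ATTGG. Promoters of H2-Ab1, H2-Ea, Ciita and Cd74 were not used here.

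Hes1, the gene that carries the reporter, went against the labels, at 6.57 on the log2 intensity scale in the positive-labelled array, against 8.78, 9.07 and 6.70 in negative replicates 1, 2 and 3. Directions below are therefore those of the library labelled positive. Over all probe sets the closest pair of arrays was the one labelled positive and negative replicate 3, with 3824 probe sets at least 1 log2 unit apart and a Pearson correlation of 0.974 across probe sets, which are not independent replicates. The other 5 pairs had 5247 to 5772 such probe sets, and correlations of 0.958 to 0.964. Median intensities were 74.8 to 76.1. The deposited values were made with RMA, which levels the arrays, so these near-equal medians are no check of the samples. Precision is limited by having 4 arrays. Among markers of the sorted cells, Kit was at 10.13 in the positive-labelled array and 9.68 to 9.90 in the negative arrays, and Cd34 at 11.87 and 10.80 to 11.70. Ly6a, which encodes Sca1, was not analysed here.

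The class II genes were brighter in the positive-labelled array and in negative replicate 3 than in negative replicates 1 and 2. The positive-labelled array was higher than the mean of the negative arrays in 13 of the 14 probe sets, by a median of 0.59 log2 units, with differences from -0.26 (a probe set of Ciita) to 1.10 (a probe set of H2-Aa). Over all probe sets the median was -0.01, and 48.4% were higher. No class II probe set passed limma's test between the labelled groups, where every adjusted p was 1.00. limma called 0% of all probe sets, with 2032 of 45037 at an unadjusted p under 0.05, among them none of the 14, and 1754 of 45037 with trend and robust settings, again with 0 called. An exact test of 1 array against 3 cannot give a one-sided p below 0.25.

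**Figure D1:**
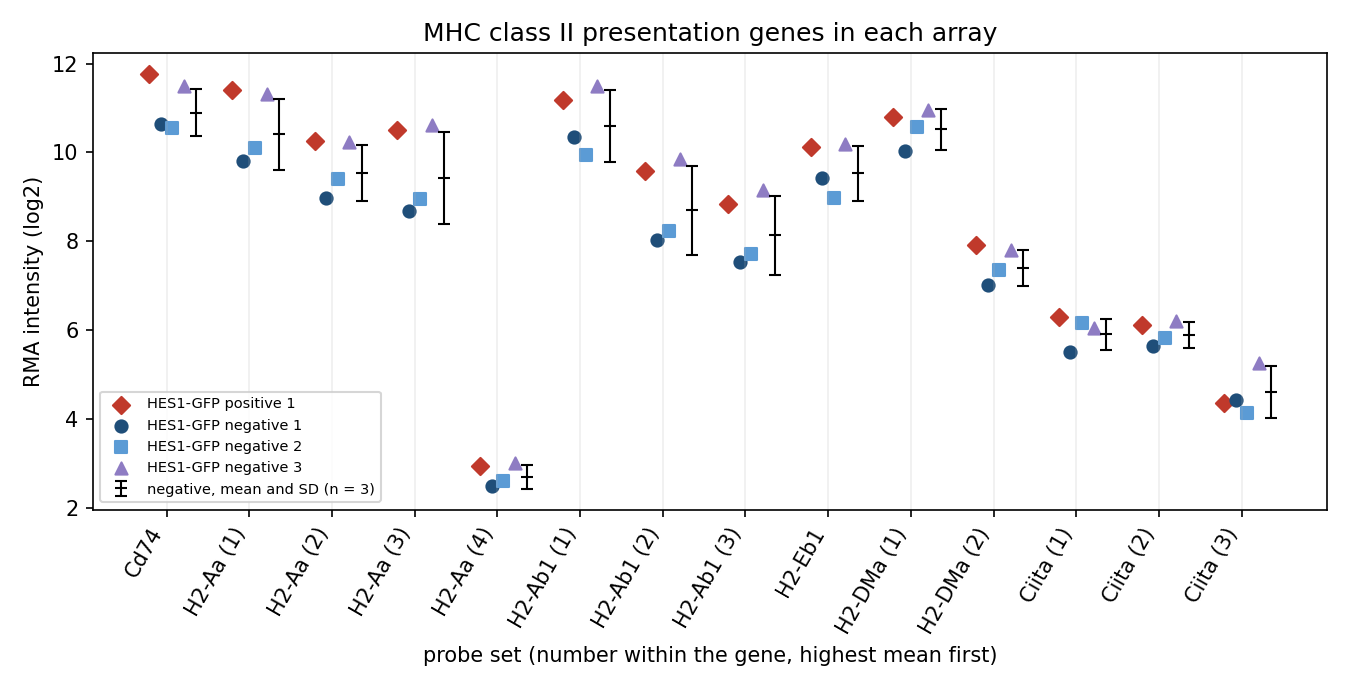
Log2 intensity (vertical axis) of the 14 class II probe sets in each of the 4 arrays. Points are arrays, and the black bar is the mean and SD of the 3 negative arrays. For most probe sets the positive array and negative replicate 3 lie together above negative replicates 1 and 2, as for Cd74 at 11.77 and 11.50 against 10.63 and 10.55.

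Cd74, the invariant chain, read 11.77 log2 units in the positive-labelled array, against 10.63, 10.55 and 11.50 in negative replicates 1, 2 and 3. The positive-labelled array was the highest of the 4, negative replicate 3 the next, and replicates 1 and 2 were 0.08 apart. The difference from the negative mean, 10.89 ± 0.53 (SD, n = 3), was 0.88 log2 units with a standard error of 0.48, or 1.84-fold (limma adjusted p = 1.00). The gene was read by a single probe set, 1425519_a_at.

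H2-Aa encodes the alpha chain of the I-A molecule, and 4 probe sets read it. The brightest, 1435290_x_at, was at 11.41 in the positive-labelled array, against 9.82, 10.10 and 11.32 in negative replicates 1, 2 and 3. Probe set 1452431_s_at was at 10.51 against 8.69, 8.96 and 10.61, and 1438858_x_at at 10.26 against 8.98, 9.41 and 10.23. In these 3 probe sets negative replicate 3 lay within 0.09 log2 units of the positive-labelled array, while replicates 1 and 2 lay 0.85 to 1.82 below it. The differences from the negative mean were 1.00 ± 0.69, 1.10 ± 0.89 and 0.72 ± 0.57 log2 units (difference ± standard error, limma adjusted p = 1.00 each). The fourth, 1443783_x_at, was very dim, at 2.95 against 2.48, 2.61 and 3.01, and kept the same order of the replicates at a difference of 0.25. In Affymetrix naming, x and s in a probe set's name mark probes that may also bind related transcripts, which holds for all 4.

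H2-Ab1 encodes the beta chain that pairs with H2-Aa. Its brightest probe set, 1450648_s_at, was at 11.17 in the positive-labelled array, against 10.35, 9.94 and 11.50 in negative replicates 1, 2 and 3. Probe set 1451721_a_at was at 9.58 against 8.03, 8.23 and 9.86, and 1425477_x_at at 8.85 against 7.53, 7.71 and 9.15. In all 3, negative replicate 3 was the highest array, 0.27 to 0.33 above the one labelled positive, and replicates 1 and 2 were the lowest. The groups therefore overlapped, with differences of 0.57 ± 0.70, 0.88 ± 0.86 and 0.72 ± 0.77 log2 units from the negative mean (difference ± standard error, limma adjusted p = 1.00 each).

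H2-Eb1, the beta chain of the I-E molecule, was at 10.13 in the positive-labelled array, against 9.42, 8.97 and 10.20 in negative replicates 1, 2 and 3. The positive-labelled array lay just under negative replicate 3 and 0.71 and 1.16 above replicates 1 and 2. The difference from the negative mean of 9.53 ± 0.62 (SD, n = 3) was 0.60 log2 units with a standard error of 0.55 (limma adjusted p = 1.00). Its partner gene H2-Ea, the alpha chain of I-E, did not follow this order. Its brightest probe set was at 5.39 against 5.61, 5.97 and 5.43, under the middle of all probe sets (6.23), and the values came without detection calls.

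H2-DMa, the alpha chain of the peptide exchange factor H2-DM, differed less. Probe set 1422527_at was at 10.79 in the positive-labelled array, against 10.03, 10.56 and 10.96 in negative replicates 1, 2 and 3. Probe set 1459872_x_at was at 7.93 against 7.01, 7.35 and 7.81. Negative replicates 1 and 2 were again the 2 lowest arrays, but in the first probe set replicate 2 lay only 0.23 below the positive-labelled array. The differences from the negative mean were 0.28 ± 0.44 and 0.54 ± 0.39 log2 units (difference ± standard error, limma adjusted p = 1.00 each).

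Ciita, the class II transactivator, was dim in all 3 of its probe sets, each with a mean below the median level of all probe sets. Probe set 1421211_a_at was at 6.31 in the positive-labelled array, against 5.50, 6.16 and 6.06 in negative replicates 1, 2 and 3, and 1421210_at was at 6.11 against 5.63, 5.81 and 6.21. Probe set 1447075_at was at 4.35 against 4.43, 4.14 and 5.26. The order of the arrays differed between these probe sets: the positive-labelled array was highest in the first, next to highest in 1421210_at and next to lowest in the last. Their differences were 0.40 ± 0.35, 0.23 ± 0.31 and -0.26 ± 0.52 log2 units (difference ± standard error, limma adjusted p = 1.00 each), and the level of the transactivator cannot be read more closely at this brightness.

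Set against the range of the 3 negative arrays, the positive-labelled array lay above it in 5 of the 14 probe sets (Cd74, 2 of H2-Aa and 1 each of H2-DMa and Ciita), below it in 0 and within it in 9. Over all probe sets it lay above in 23.2% and below in 23.6%. None of the 14 was at least 1 log2 unit above the range, against 1.35% of all probe sets. Without negative replicate 3 the count above the range became 13 of 14, against 34.4% of all probe sets above the same 2 arrays. Negative replicate 3 was the negative array nearest to the positive-labelled one in these genes, so leaving it out had to widen the gap. The median difference of the 14 was 0.98 log2 units without replicate 3, 0.43 without replicate 1 and 0.51 without replicate 2. The count above the range stayed at 5 of 14 without replicate 1 or replicate 2. With all probe sets of a gene averaged, 1 of the 6 genes lay above the range, Cd74, and H2-Aa lay 0.01 log2 units under negative replicate 3.

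The difference depended on which negative array was taken. Against negative replicate 1, the positive-labelled array was at least 1 log2 unit higher in 6 of the 14 probe sets, against 6.02% of all probe sets, with a median difference of 0.87. Against negative replicate 2, this held for 7 of 14, against 6.41%, with a median of 0.99. Against negative replicate 3, it held for 0 of 14, against 4.45%, with a median of -0.08 and 5 of 14 above 0. The 6 were probe sets of Cd74, H2-Aa and H2-Ab1, and the 7 were of these genes and H2-Eb1, so repeat probe sets of a gene were counted separately. These 3 comparisons share the positive-labelled array, and with 1 array on each side they have no replicate check.

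The same genes separated the negative arrays from each other. Negative replicate 3 was at least 1 log2 unit above negative replicate 1 in 6 of the 14 probe sets, against 5.81% of all, and above negative replicate 2 in 7 of 14, against 6.2%. The 6 were all probe sets of H2-Aa or H2-Ab1, and the 7 were of H2-Aa, H2-Ab1, H2-Eb1 and Ciita. Probe sets of the same gene are not independent, so these counts rest on few genes. Its median difference was 0.90 from replicate 1 and 1.04 from replicate 2, while replicate 2 differed from replicate 1 by a median of 0.20. The class II genes thus varied about as much inside the negative group as between the labelled groups. The summed linear intensity of the 6 genes, taking the brightest probe set of each, was 11507 in the positive-labelled array, against 5568, 5670 and 11598 in negative replicates 1, 2 and 3. In RNA from sorted bulk cells, more cells that express these genes and more RNA per cell cannot be told apart.

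**Figure D2:**
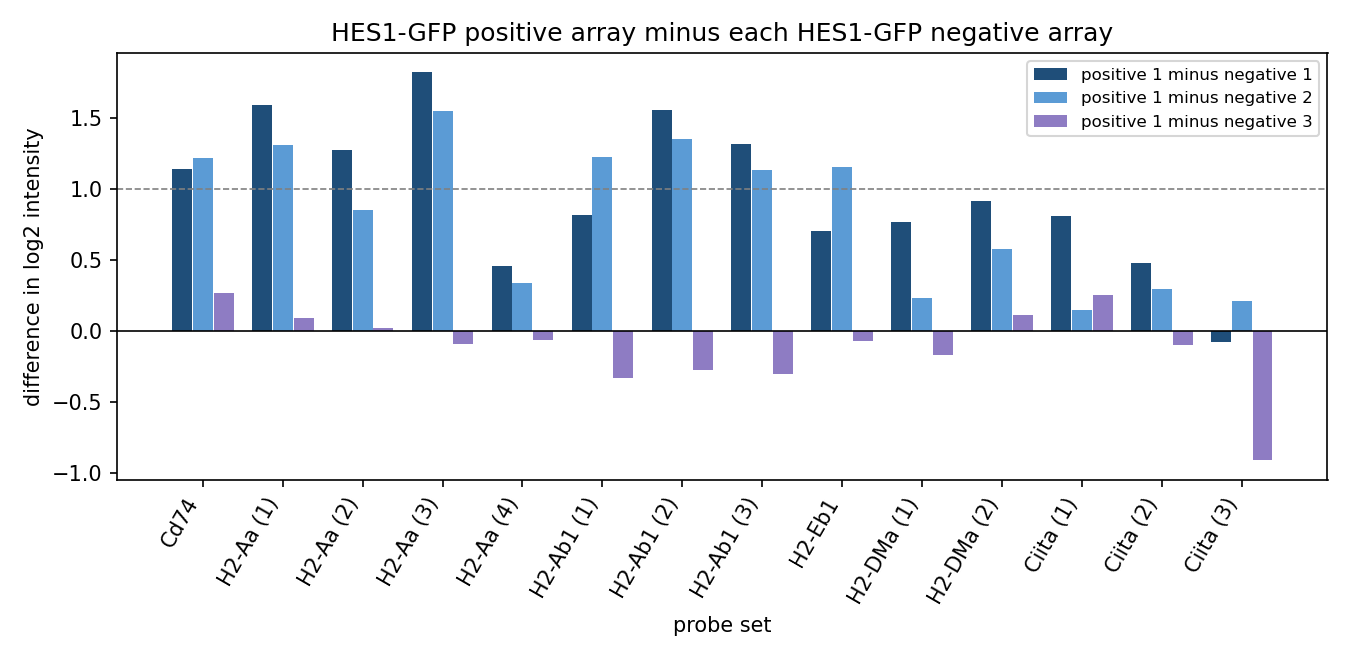
Difference in log2 intensity between the positive array and each negative array (bars, one per negative replicate) for the 14 class II probe sets; the dashed line marks 1 log2 unit. Bars against negative replicates 1 and 2 are mostly tall, with medians of 0.87 and 0.99, and bars against negative replicate 3 run from -0.91 (Ciita) to 0.27 (Cd74), with a median of -0.08.

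Within the gene set, the closest pair of profiles was H2-Ab1 and H2-Eb1. Likeness was measured as the Euclidean distance between log2 profiles over the 4 arrays, each centred on its own mean, with the brightest probe set per gene. The distance was 0.29 between H2-Ab1 and H2-Eb1, 0.36 between Cd74 and H2-Eb1, and 0.39 between H2-DMa and Ciita. It was 0.87 to 1.20 between Ciita and the other 4 genes. Ciita and H2-DMa had negative replicate 1 as their lowest array, whereas in H2-Ab1 and H2-Eb1 replicate 2 was the lowest. Many other genes had such profiles. Of 11011 other genes brighter than the median probe set, 148 lay nearer to Cd74 than H2-Eb1 did. For H2-Ab1, 27 lay nearer than H2-Eb1 did. These are counts for close pairs: 1315 lay nearer to Cd74 than H2-DMa did and 4546 nearer to H2-Ab1 than Ciita did. The 5 nearest to Cd74 were Gbe1, Fam210b, Capn10, Tvp23b and Nxpe2, at distances of 0.04 to 0.11, and the 5 nearest to H2-Aa were 1700025G04Rik, Anxa1, Fam214b, Cep76 and Rnf144b, at 0.07 to 0.16. Over 4 arrays such nearness is a description only.

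On mouse chromosome 17 the class II chain genes lie side by side with genes of class I peptide supply. In the RefSeq order of GRCm38.p6, 14 genes run from H2-Oa to H2-Eb2, and 13 of them had a probe set of their own. H2-Ab1, H2-Aa and H2-Eb1 are direct neighbours, and these 3 had the profile described above. H2-Ob, the gene beside H2-Ab1 and a chain of H2-O, which restrains H2-DM, was at 9.16 in the positive-labelled array, against 9.29, 9.97 and 9.08 in negative replicates 1, 2 and 3. H2-Eb2, on the other side, was at 5.32 against 5.05, 5.38 and 5.25, with all 4 arrays below the median level of all probe sets. Neither neighbour showed the order of arrays seen in the chain genes between them, and in H2-Ob negative replicates 1 and 2 were the highest arrays.

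Further along the region, H2-Oa, the partner of H2-Ob, was at 8.72 in the positive-labelled array, against 8.91, 7.83 and 8.04 in negative replicates 1, 2 and 3. H2-DMb2, a beta chain of H2-DM, was at 9.62 against 10.24, 8.90 and 9.41, and its other 2 probe sets, both lower in the positive-labelled array than in any negative array, differed by -0.78 and -0.85 log2 units. Replicate 1 was the highest array for both genes, unlike for H2-DMa. The 2 probe sets that H2-DMb1 and H2-DMb2 share differed by 0.37 and -0.07. The class I genes in the region, chosen here for their place after their values had been seen, were Psmb9 and Psmb8, subunits of the immunoproteasome, and Tap1 and Tap2, which pump peptides into the endoplasmic reticulum. Psmb9 was at 11.69 against 11.16, 11.40 and 11.78, with replicates 1 and 2 the lowest, while Tap1 was at 8.69 against 9.44, 9.40 and 8.79, with replicates 1 and 2 the highest. Psmb8 and Tap2 differed from the negative mean by -0.16 and -0.12 log2 units, also with replicates 1 and 2 the highest.

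**Figure D3:**
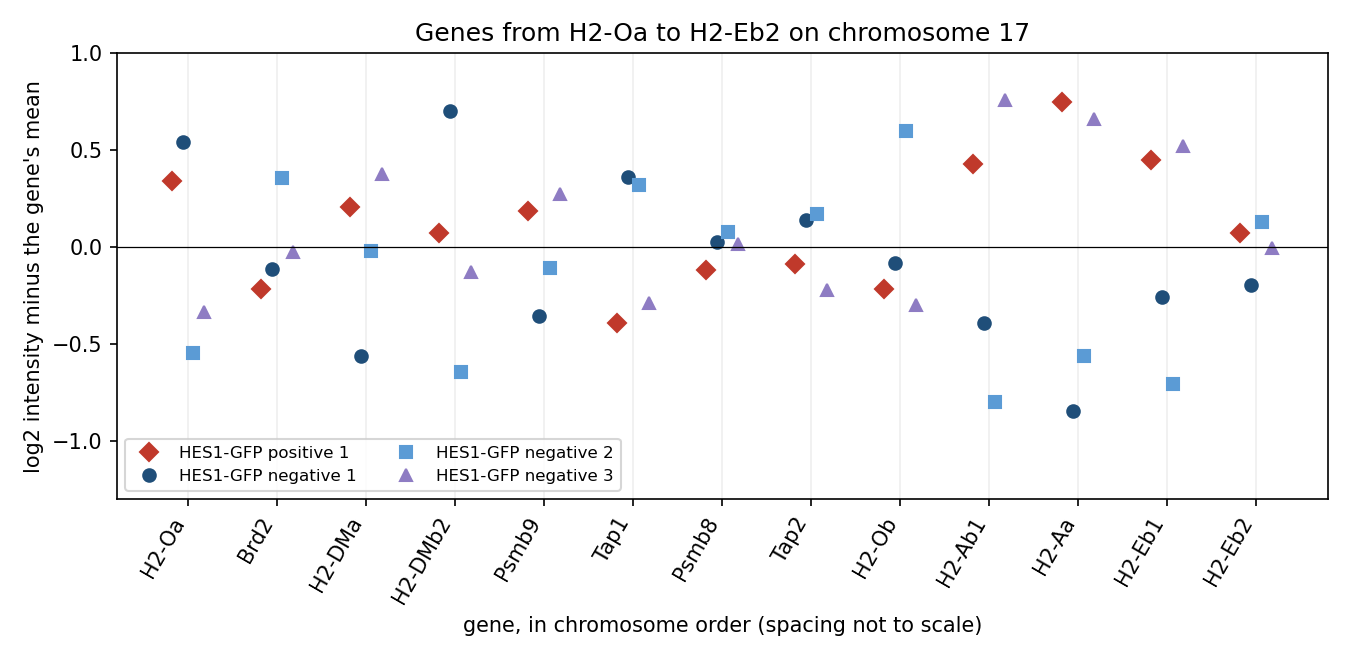
Log2 intensity minus the gene's own mean (vertical axis) for the 13 measured genes from H2-Oa to H2-Eb2 in chromosome order, 1 point per array. In H2-Ab1, H2-Aa and H2-Eb1 the positive array and negative replicate 3 lie above 0 and negative replicates 1 and 2 below it. H2-DMa and Psmb9 show the same order, and Tap1 and Tap2 show it reversed. In H2-Ob and Psmb8 negative replicates 1 and 2 are also the highest arrays.

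The wider machinery of class II presentation varied from gene to gene. Of 14 partner genes measured from a list of other chains, endosomal enzymes, ubiquitin ligases and costimulators, 0 lay above the range of the negative arrays, 6 below and 8 within, and their median difference was -0.29 log2 units. Over all 18193 genes 23.6% lay above and 23.0% below, with a median of -0.001. limma passed 0 of the 14. Lgmn, an endosomal protease, was at 6.73 in the positive-labelled array, against 9.62, 10.15 and 7.27 in negative replicates 1, 2 and 3. Ctss, the cathepsin that trims the invariant chain, was at 11.35 against 12.13, 12.10 and 11.44, and Ifi30, a thiol reductase that unfolds antigens, at 10.50 against 11.04, 11.54 and 10.64. In all 3, negative replicates 1 and 2 were the highest arrays, which is the reverse of Cd74 and the I-A chains.

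Among the other partners, Cd86, a costimulatory ligand, was at 6.98 in the positive-labelled array, against 8.93, 8.33 and 7.02 in negative replicates 1, 2 and 3. Cd80, its relative, was at 5.19 against 5.18, 7.45 and 5.20, high in replicate 2 alone. Ctsl, another cathepsin, was at 9.83 against 10.49, 10.93 and 9.56. These 3 also had their higher values in replicates 1 or 2. Cd40, a receptor for T cell help, was at 8.61 against 8.68 to 8.71, and Marchf8, a membrane-bound ubiquitin ligase related to Marchf1, differed by 0.01 log2 units. Marchf1, the ligase known for turning over class II in dendritic and B cells, was at 8.02 against 6.66, 8.34 and 8.06, and another of its probe sets differed by -1.35.

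Of 17 measured genes that bind class II promoters or switch Ciita on or off, 3 lay above the negative range, 6 below and 8 within, a median difference of 0.01 on the log2 scale and 0 passing limma's test. Rfxap, a subunit of the RFX complex on the X box, was at 9.52 in the positive-labelled array, against 8.30, 8.22 and 8.90 in negative replicates 1, 2 and 3, a difference of 1.04 ± 0.36 (standard error, limma adjusted p = 1.00). Its second probe set differed by -0.64. The other RFX subunits were closer, Rfx5 at 9.12 against 8.84 to 9.13 and Rfxank at 8.25 against 7.78 to 8.68. The NF-Y subunits Nfya, Nfyb and Nfyc differed by -0.41, 0.11 and 0.12 log2 units, and Creb1, which binds next to the X box, by -0.55. These Nfya and Creb1 probe sets were below all 3 negative arrays, at 11.55 against 11.88 to 12.06 and 10.14 against 10.65 to 10.77, and 3 of the other 5 Creb1 probe sets differed upwards. The other Nfya probe sets differed by 0.09 and -0.04 and lay within the negative range, and the other Rfxank probe sets differed by -0.49 and 0.24. The probe sets of Rfxap, Creb1, Nfya and Rfxank thus disagreed in direction.

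The interferon gamma route that induces Ciita showed no common order. Its receptor chains Ifngr1 and Ifngr2 differed by 0.01 and -0.23 log2 units, the kinases Jak1 and Jak2 by -0.57 and -0.12, Irf1 by 0.05 and the feedback inhibitor Socs1 by -0.18. Irf8 and Spi1, factors of myeloid and dendritic progenitors, differed by 0.23 and 0.08. A second probe set of Ifngr2, Jak2 and Irf8 differed by 0.28, 0.29 and -0.11, each in the other direction from the first. Irf4, a factor of dendritic and B cells, was at 6.79 in the positive-labelled array, against 8.98, 8.72 and 6.91 in negative replicates 1, 2 and 3. Prdm1, a repressor of Ciita, differed by -0.19. Of all the genes named in this paragraph, Irf4 alone stood over 1 log2 unit from the negative mean, and negative replicates 1 and 2 were its highest arrays.

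Class I presentation served as a neighbouring system, and its 15 measured genes differed by a median of -0.06 log2 units, with 4 above the negative range, 5 below, 6 within and 0 passed by limma. B2m, the light chain of class I, was at 13.20 in the positive-labelled array and 13.21 to 13.36 in the negative arrays, and Psme1, a proteasome activator, at 12.30 and 12.34 to 12.44. Canx and Calr, chaperones of the endoplasmic reticulum, differed by 0.38 and 0.31. Nlrc5, the class I counterpart of Ciita, was at 7.66 against 6.94, 5.66 and 5.38, a difference of 1.66 ± 0.71 (standard error, limma adjusted p = 1.00). The other 14 class I genes differed from the negative mean by -0.52 to 0.38 log2 units.

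Markers of the cell types best known for class II were set beside these values. Macrophage markers had a summed linear intensity of 8053 in the positive-labelled array, against 36192, 35095 and 8824 in negative replicates 1, 2 and 3, with 0 of 14 above the negative range and 7 below. B lineage markers had 4256 against 26197, 25135 and 4352, with 1 of 11 above, Ms4a1, and 6 below. Both lists were therefore low in the 2 arrays where the class II genes were bright. C1qb, a complement chain of macrophages, was at 10.89 against 12.97, 12.94 and 10.08, and Vpreb1, a part of the surrogate light chain of early B cells, at 10.54 against 12.77, 12.64 and 10.85. Ms4a1, the mature B cell marker CD20, was at 3.34 to 4.06 in every array, far below the median level of all probe sets. The part of these cell types in the class II values was not tested.

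Dendritic cell markers split. Their summed intensity was 6492 in the positive-labelled array, against 12644, 12262 and 6221 in negative replicates 1, 2 and 3. Bright genes weigh most in such a sum, among them Ly6d, at 7.66 against 11.81, 11.63 and 7.63, and Ccr9, at 8.73 against 10.95, 10.94 and 7.24. By gene, 4 of 13 lay above the negative range, 4 below and 5 within, with a median difference of -0.20 log2 units. Zbtb46, a factor of conventional dendritic cells, was at 7.76 against 6.63, 6.76 and 7.62, the order seen in the class II genes. Cd209a, a lectin of monocyte-related dendritic cells, was at 6.69 against 3.93, 3.95 and 4.85, a difference of 2.45 ± 0.47 (standard error, limma adjusted p = 0.980). Siglech, a marker of plasmacytoid dendritic cells, was at 8.83 against 10.70, 10.38 and 9.50, the opposite order, and Fscn1, an actin bundler of mature dendritic cells, differed by 0.58 ± 0.22 (standard error, limma adjusted p = 1.00). Batf3, at 7.25 against 6.32, 6.42 and 7.41, and Clec10a, at 6.77 against 4.78, 5.28 and 7.02, also had the order seen in the class II genes. Itgax, Cd8a, Tcf4 and Bst2 had negative replicates 1 and 2 as their highest arrays. Xcr1, which defines a conventional subset, was at 4.16 to 4.31 in every array. Ly6d, Ccr9, Batf3, Clec10a, Itgax, Cd8a and Xcr1 were picked here after their values were seen. The part of dendritic cells in the class II values was not tested.

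**Figure D4:**
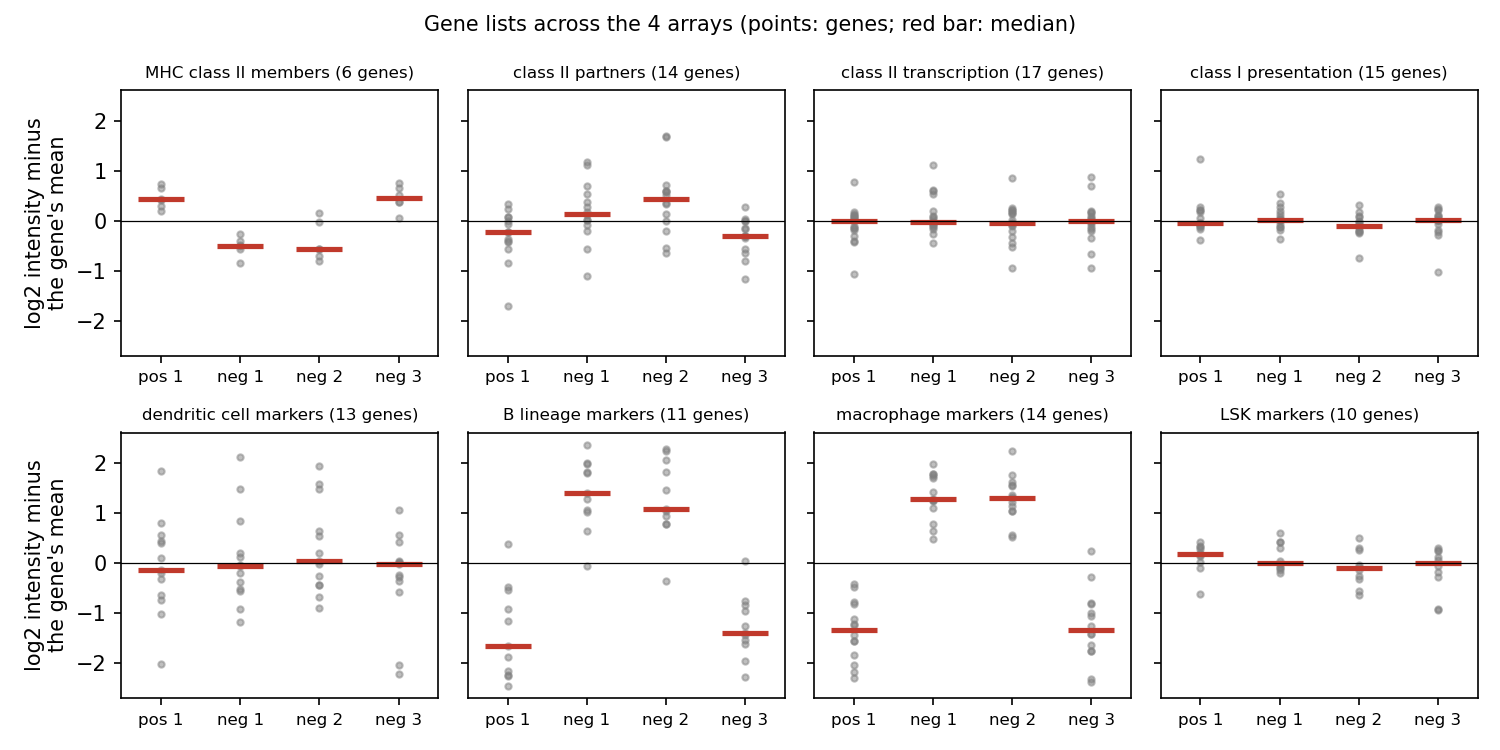
Log2 intensity minus the gene's own mean (vertical axis) in the 4 arrays for 8 gene lists; points are genes and red bars are medians. The medians of the class II genes are 0.44 in the positive array and -0.50, -0.56 and 0.45 in negative replicates 1, 2 and 3, while B lineage and macrophage markers run the opposite way and class I genes stay near 0.

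The other lists completed the picture of the sort. T and innate lymphoid markers had 1 of 8 above the negative range and 5 below (median difference -1.36 log2 units), and endothelial markers 1 of 10 above and 7 below (-1.24). LSK markers had 5 of 10 above and 1 below (0.24), and erythroid markers 2 of 6 above and 0 below (0.32). limma passed none of these genes. Flt3, a cytokine receptor of progenitors that give rise to dendritic cells among others, was at 11.07 in the positive-labelled array, against 12.12, 11.95 and 11.63 in negative replicates 1, 2 and 3. Like the class II genes, the erythroid list was higher in the positive-labelled array and negative replicate 3 than in the other arrays, with centred medians of 0.24 in the positive-labelled array and -0.40, -0.23 and 0.31 in negative replicates 1, 2 and 3. Hbb-bh1, an embryonic globin, was at 7.91 against 6.14, 6.34 and 7.85. The part of erythroid cells in the class II values was not tested.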

How the data were processed

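The authors deposited a linear intensity per probe set, made with RMA per the submitters' processing notes; its software is not given in the sources used here. That the scale is linear was read from the values (4.27 to 27451). Deposited intensities were log2-transformed, adding no pseudocount. Of 45101 probe sets, 64 were controls and left out. The platform annotation gave 34945 of the rest 1 symbol, 932 several and 9160 none, and only the first were named. Of these 34741 matched the reference gene table by gene ID. limma 3.58.1 (R 4.3.3, lmFit and eBayes, no trend) compared positive with negative over all 45037 probe sets, two-sided, with Benjamini-Hochberg adjustment at 0.05. The spread came from the 3 negative arrays (2 residual and 1.80 prior degrees of freedom), and the single positive array is taken to have the same spread. Lists and the chromosome region used the brightest probe set per gene, in a fit over 18193 genes. Here "above" or "below" the range means higher or lower than all 3 negative arrays.

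The class II genes and the lists were chosen with earlier results of these data known. Named were all probe sets of the 6 genes, the measured partner and promoter factor genes, up to 4 genes by moderated t and 2 by level from each other list, and the 5 nearest profiles; exceptions are stated. H2-DMb1 and some other list genes were not analysed here. On 5 simulated data sets (1 against 3 arrays, 45037 probe sets) the fit called 0 of 250 probe sets changed by 1 log2 unit. It called 1.2% of those changed by 2 log2 units and 70.4% of those changed by 4. The lack of a call therefore says little about differences as small as most of those in the class II genes. Alternatives were cyclic loess, a pseudocount of 16, a filter on level, trend and robust variance, both gene summaries and leaving out each negative array. Counts above the range under these alternatives were added after seeing the data.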

Additional observations from a re-analysis of the deposited data

How the results depend on the processing

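limma called 0 of all probe sets or genes under each of 9 alternatives. Trend and robust variance, the level filter and 1 probe set per gene leave the class II differences unchanged by construction. These settings could not reverse a direction. Of 106 differences of class II probe sets, or of genes where probe sets were averaged, 105 kept their direction with these settings included. The exception was Ciita probe set 1447075_at, which differed by -0.50 to 0.066 log2 units when 1 negative array was left out, turning positive without negative replicate 3. The median difference was 0.53 to 0.72 under the 6 alternatives that keep all arrays and 0.43 to 0.98 with 1 negative array left out. The number of class II probe sets above the negative range was 5 to 13 with 1 negative array left out, and the number below was 0 to 1, the 1 being the same Ciita probe set without negative replicate 2. With 1 probe set per gene, 3 of 6 genes lay above the range, and with averaged probe sets 1 of 6, counts over fewer features by construction. The upper ends, 13 probe sets and a median of 0.98, came from leaving out negative replicate 3, the negative array nearest to the positive-labelled one in these genes. The alternatives started from the deposited values, and background correction was not varied. No paired analysis was possible because the groups share only 1 replicate number.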
